A study of Drosophila melanogaster with 4 samples.

Results

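The 10 genes described here encode kinases or their subunits, phosphatase subunits and F-box proteins. Their products act on PER or TIM, the repressor proteins of the Drosophila circadian clock. They are 5 kinase genes (dco, sgg, nmo, CkIIalpha and CkIIbeta), the genes tws, wdb and mts for subunits of protein phosphatase 2A (PP2A), and the F-box genes slmb and jet, whose products choose substrates for ubiquitin ligases. They were chosen by name for this role with earlier results of these data known, by a rule that uses no measured value, and are 10 of the 14163 gene symbols in each deposited table. Messenger RNA of the neurons labelled dvpdf, from brains of Drosophila melanogaster, was amplified and sequenced in 4 libraries. The labels call 2 libraries control and 2 NonA RNAi, the latter for RNA interference against nonA, the gene of a nuclear RNA-binding protein. The cells and the library kit were shared by both groups. Beyond the label dvpdf, the sources used here do not name the driver line. They give neither the interference construct, the age and sex of the flies nor the time of day. Nor do they say whether replicates came from separate animals. P-values therefore cover no more than the spread of these 4 libraries, which can be technical.

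In the fly clock, PER and TIM accumulate, enter the nucleus and shut off their own transcription. Phosphorylation sets the pace of this loop: kinases mark PER and TIM for nuclear entry or for destruction, PP2A removes phosphate from PER, and F-box proteins hand the marked proteins to the proteasome. Neurons that release the peptide PDF are the pacemakers of morning activity and of free-running rhythms.

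Reads assigned to genes came to between 8419248 and 9832771 per library, and levels are given in CPM, the reads of a gene per 1000000 gene reads. Where a group is given by a pair of values, the first is replicate 1 and the other replicate 2. The targeted gene was below both controls in NonA RNAi replicate 1 only. nonA was read at 256 and 241 CPM under the control label and 168 and 283 CPM under the NonA RNAi label. The library labelled NonA RNAi replicate 2 thus lay above both controls, so every direction below rests on the labels alone. Pdf, from a list of 6 markers of the labelled neurons, was at 4979 and 2159 CPM (control) and 18436 and 86575 CPM (NonA RNAi). In bulk RNA a different share of cells and a different amount of RNA per cell cannot be told apart. Of the other markers cry, tim and vri lay above both controls, with log2 folds of 0.40, 0.87 and 0.83, against 3.88 for Pdf. The groups of per and Clk overlapped. Summed levels of the 5 glial markers were 853 and 1724 CPM (control) and 246 and 797 CPM (NonA RNAi), and those of the 5 photoreceptor markers 191 and 311 CPM (control) and 57.7 and 49.1 CPM (NonA RNAi). The 5 fat body markers summed to 1974 and 192 CPM (control) and 258 and 102 CPM (NonA RNAi), and the 5 neuronal markers to 2493 and 2065 CPM (control) and 2037 and 2429 CPM (NonA RNAi). The 3 hemocyte markers summed to 814 and 387 CPM (control) and 955 and 419 CPM (NonA RNAi), and the 4 muscle markers to 7.25 and 1.63 CPM (control) and 86.9 and 0.584 CPM (NonA RNAi). Every marker of the glial and neuronal lists was read in each library. Lsp2 had no read in either NonA RNAi library, fit was read in control replicate 1 alone, ninaC, trp, Hml and NimC1 had no read in NonA RNAi replicate 1, and Mhc had none in control replicate 2 or NonA RNAi replicate 2.

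All 10 genes were read in every library, and none passed the test of a difference between the groups. Reads of a single gene ranged from 154 for jet to 7416 for mts, and together the 10 genes took between 0.184% and 0.24% of the gene reads. All 10 passed the filter of a mean of at least 1 CPM, which left 9404 genes for the test. edgeR's quasi-likelihood test, adjusted by Benjamini-Hochberg, called 0 of the 10 genes, with adjusted p between 0.948 and 0.999, and 0% of all genes tested. At an unadjusted p under 0.05 edgeR had 0 of the 10 genes, against 4.86% of all genes, and DESeq2, run as an alternative, called 0 of the 10 against 1.51% of all genes. Both libraries labelled NonA RNAi were under both controls for 3 of the 10 genes, dco, mts and slmb, where this held for 17.5% of all genes. They lay above both controls for 1, nmo, where this held for 15.2%. The fitted log2 fold was below 0 for 8 of the 10 genes, against 50.4% of all genes tested. Under the scalings by TMM, by median of ratios and without Pdf it was below 0 for 7 of the 10 each time. Of the 9404 genes tested, 4537, 4681 and 4335 were below 0 under these scalings. The median log2 fold of the 10 genes was -0.30, against -0.01 over all genes.

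**Figure D1:**
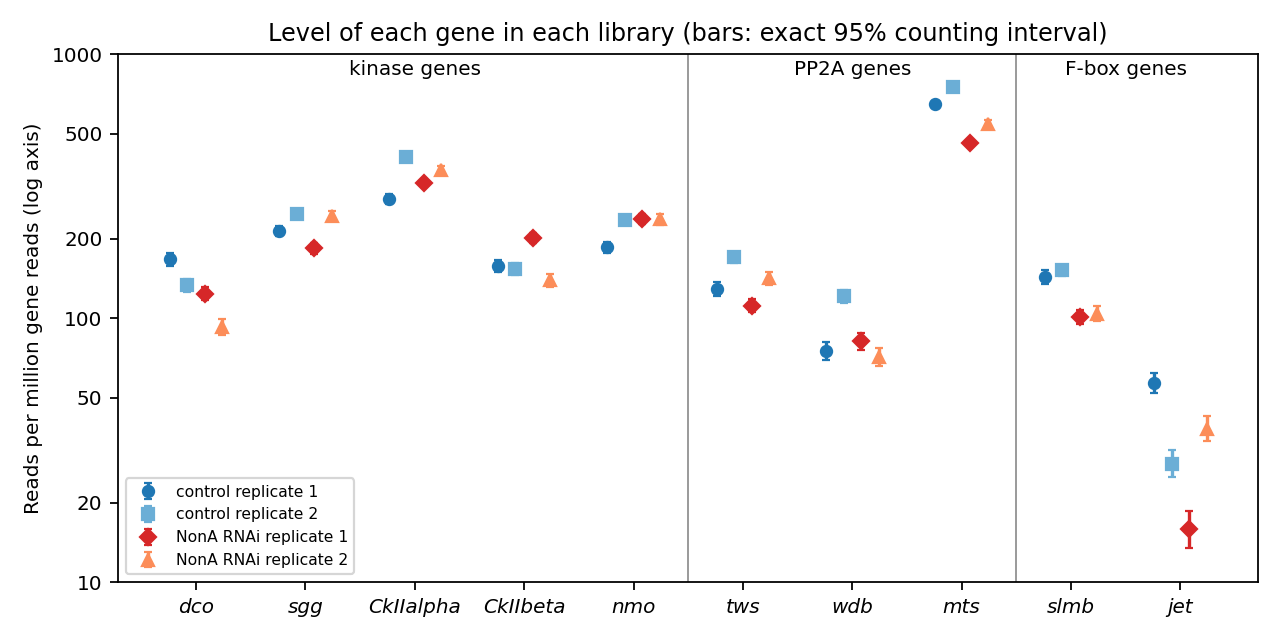
Level of each of the 10 genes in each library, in CPM on a log axis, by kinase, PP2A and F-box genes; points are single libraries and bars the exact 95% counting interval. For dco, mts and slmb both red and orange points lie below both blue points, and jet has the widest spread, from 15.9 to 56.9.

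Of the 5 kinase genes, dco lay below both controls and nmo above, while the groups of sgg, CkIIalpha and CkIIbeta overlapped. dco (FBgn0002413, chromosome arm 3R) encodes Doubletime, the casein kinase 1 that phosphorylates PER and promotes its destruction. Its level was 167 and 133 CPM under the control label and 123 and 92.7 CPM under the NonA RNAi label. Both NonA RNAi libraries were lower, but the distance from control replicate 2 to NonA RNAi replicate 1 was smaller than that between the libraries of either group. The means were 150 ± 23.8 and 108 ± 21.8 CPM (SD, n = 2 each), and edgeR's quasi-likelihood test gave a log2 fold of -0.47, a standard error (SE) of 0.44 and an adjusted p of 0.953. The 95% interval of the log2 fold ran from -1.54 to 0.59.

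sgg (FBgn0003371, chromosome X) encodes Shaggy, the fly glycogen synthase kinase 3, which phosphorylates TIM and advances nuclear entry of the repressor complex. It was read at 214 and 247 CPM (control) and 184 and 244 CPM (NonA RNAi). The groups overlapped, with NonA RNAi replicate 1 lowest and the other NonA RNAi library next to the highest control. The log2 fold was -0.11 (SE 0.44), and its 95% interval ran from -1.18 to 0.97. By annotation a long non-coding RNA gene on the same strand shares 1470 exonic bases with sgg, and whether its reads were counted as sgg was not tested.

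Casein kinase 2, which phosphorylates PER and TIM in the pacemaker neurons, has a catalytic subunit encoded by CkIIalpha (FBgn0264492, chromosome arm 3L) and a regulatory one by CkIIbeta (FBgn0000259, chromosome X). CkIIalpha was at 282 and 408 CPM (control) and 325 and 363 CPM (NonA RNAi). Both NonA RNAi libraries lay inside the range of the controls, and the log2 fold was -0.01 (SE 0.45), its interval running from -1.11 to 1.10. Its sign turned under other scalings. CkIIbeta was at 157 and 153 CPM (control) and 201 and 139 CPM (NonA RNAi). Here the controls lay close together and the NonA RNAi libraries on either side of them, for a log2 fold of 0.13 (SE 0.45) whose interval ran from -0.95 to 1.22.

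nmo (FBgn0011817, chromosome arm 3L) encodes Nemo, a proline-directed kinase that phosphorylates PER. Its level was 186 and 235 CPM (control) and 238 and 237 CPM (NonA RNAi). Both NonA RNAi libraries were above both controls, but control replicate 2, with an exact 95% counting interval of 226 to 245 CPM, could not be told from either of them at this depth. With TMM or median-of-ratios scaling nmo no longer lay above both controls. The log2 fold was 0.17 (SE 0.44). Summed over the 5 kinase genes, the levels were 1006 and 1176 CPM (control) and 1071 and 1075 CPM (NonA RNAi), again inside the control range.

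The PP2A subunit genes were read at lower mean levels in the NonA RNAi libraries, without a difference that passed the test. mts (FBgn0004177, chromosome arm 2L) encodes the catalytic subunit, Microtubule star, which dephosphorylates PER within PP2A. Its level was 649 and 754 CPM (control) and 459 and 545 CPM (NonA RNAi). The groups were apart, by a gap between 545 and 649 CPM that was about as wide as the distance between the libraries of each group. The means were 701 ± 74.7 and 502 ± 61.0 CPM (SD, n = 2 each). In edgeR's quasi-likelihood test the log2 fold was -0.48 (SE 0.45), the interval ran from -1.57 to 0.61 and the adjusted p was 0.953.

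tws (FBgn0004889) and wdb (FBgn0027492), both on chromosome arm 3R, encode regulatory subunits, Twins of the B family and Widerborst of the B′ family, which direct PP2A to its substrates and have both been tied to the dephosphorylation of PER. tws was at 129 and 170 CPM (control) and 111 and 142 CPM (NonA RNAi). wdb was at 75.2 and 121 CPM (control) and 81.6 and 71.4 CPM (NonA RNAi). For both genes the groups overlapped, and control replicate 2 was the highest of the 4 libraries. The log2 folds were -0.24 and -0.36 (SE 0.44 and 0.46), and without control replicate 2 the log2 fold of wdb was 0.02. Summed over the 3 PP2A genes, most of it mts, the levels were 852 and 1045 CPM (control) and 651 and 758 CPM (NonA RNAi).

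**Figure D2:**
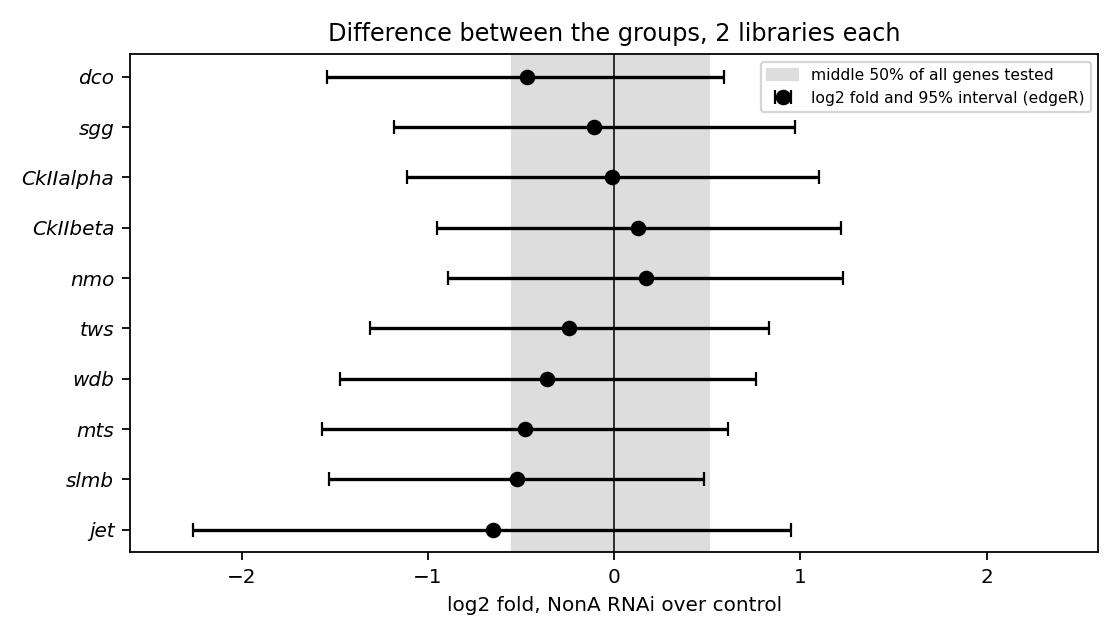
Log2 fold of the libraries labelled NonA RNAi over control for each of the 10 genes (horizontal axis), with points for the edgeR estimate from 2 libraries a group and bars for its 95% interval; the grey band is the middle 50% of all 9404 genes tested, from -0.55 to 0.51. All 10 intervals cross 0, and jet has the widest, from -2.26 to 0.95.

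Of the F-box genes, slmb had the cleanest separation and jet the largest spread among the 10 genes. slmb (FBgn0283468, chromosome arm 3R) encodes Slimb, the F-box subunit that binds phosphorylated PER and takes it to ubiquitination. Its level was 143 and 152 CPM (control) and 101 and 104 CPM (NonA RNAi). The groups were apart, by a gap between 104 and 143 CPM that was wider than the distance between the libraries of either group. The means were 147 ± 5.78 and 103 ± 2.27 CPM (SD, n = 2 each). The log2 fold was -0.52 (SE 0.41) and its interval ran from -1.53 to 0.48. In edgeR's quasi-likelihood test the unadjusted p was 0.249, the smallest of the 10 genes, and the adjusted p 0.948. This test takes much of its estimate of spread from all genes. The libraries of slmb differed by 0.08 on the log2 scale between the controls and by 0.05 between the NonA RNAi libraries. DESeq2 gave slmb an unadjusted p of 0.265 and an adjusted p of 0.978.

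jet (FBgn0031652, chromosome arm 2L) encodes Jetlag, a leucine-rich F-box protein through which light and the photoreceptor CRY bring about the destruction of TIM. It had 479 and 276 reads in the controls and 154 and 326 reads in the NonA RNAi libraries, or 56.9 and 28.1 CPM (control) and 15.9 and 38.1 CPM (NonA RNAi). NonA RNAi replicate 2 lay between the controls, so the groups overlapped, and the highest library was 3.57 times the lowest. The log2 fold was -0.65 (SE 0.66), with an interval from -2.26 to 0.95. It became -1.42 without NonA RNAi replicate 2 and -0.06 without control replicate 1. By annotation exons of jet share 119 bases with betaggt-I, a gene on the opposite strand, and whether reads were counted by strand is not stated. betaggt-I was at 81.7 and 45.9 CPM (control) and 39.8 and 73.8 CPM (NonA RNAi), the same order of libraries as jet. Whether shared reads gave this order was not tested.

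For the genes dco, mts and slmb, the glial and photoreceptor marker sums above were likewise below both controls under the NonA RNAi label, and the part of these cells in the levels was not tested. All 5 photoreceptor markers were below both controls one by one, but of the 5 glial markers nrv2 alone was, at 554 and 1208 CPM (control) and 72.5 and 367 CPM (NonA RNAi). The other glial markers overlapped, and Eaat1, at 247 and 205 CPM (control) and 75.3 and 354 CPM (NonA RNAi), was highest in NonA RNAi replicate 2. The neuronal marker sum overlapped between the groups. With 1 library left out, fewer libraries have to be apart. Counts of genes on the lower side are not given for that case, since the share of all genes was not counted. Log2 folds with each library left out ran from -0.70 to -0.28 for dco, -0.61 to -0.36 for mts and -0.56 to -0.48 for slmb. Where the groups are apart, leaving out 1 library cannot turn the sign. The log2 fold also stayed below 0 for tws, from -0.43 to -0.03, and jet, from -1.42 to -0.06, whose groups overlapped.

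The spread within each group can be set beside that of other genes, as a description without a test. The median absolute log2 difference between the controls was 0.33 for the 10 genes and 0.57 for all genes tested, or 0.52 for the 7277 genes with a mean of at least 10 CPM, a limit that all 10 genes met. Between the NonA RNAi libraries the medians were 0.3, 0.71 and 0.65. The highest library was 1.51 times the lowest in the median of the 10 genes, 2.75 times over all genes and 2.31 times over those of at least 10 CPM. The level of the 10 genes stood between percentile 48.4 for jet and percentile 97.2 for mts of all genes tested. Neither of the wider gene sets was matched to the 10 genes in level, and the part of level in these differences was not tested. The exact 95% interval of a level was at most 16.1% to either side, for jet in NonA RNAi replicate 1, and in the narrowest case 2.28%. Amplification makes several reads of 1 molecule possible, so these intervals cover counting error only.

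Levels of the 10 genes can be set against each other only per length, and the length used changed their order. The deposited RPKM divides by a listed length that for 7 of the 10 genes is within 1 base of the whole span from the first to the last exon, introns included. On that scale nmo, with a listed length of 75103 bases, was the lowest of the 10 genes in each library at a mean of 1.10 RPKM, and jet, with 1580 bases, was at rank 3 with 7.89 RPKM. When reads were divided by the joined exons of the Ensembl annotation instead, nmo stood at rank 4 with 32.2 CPM per kilobase and jet at rank 8 with 23.9 CPM per kilobase. Per kilobase of the median annotated transcript nmo was at rank 4 with 83.2 and jet at rank 9 with 25.8 CPM.

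The top of the order was the same under all of these lengths. mts was first and CkIIalpha was next in each of the 4 libraries, at means of 194 and 153 CPM per kilobase of joined exons and 293 and 224 CPM per kilobase of the median transcript. Per kilobase of joined exons slmb followed at 35.8, then nmo at 32.2, CkIIbeta at 28.5, tws at 27.3, dco at 27.0 and jet at 23.9 CPM. From slmb through these genes to jet, and from jet to sgg, each gene was above its next neighbour in 2 of the 4 libraries only, so neighbours in this stretch did not differ beyond the spread between libraries. Genes farther apart in it could differ in each library: slmb was above tws, dco and jet in 4 of 4 libraries, and nmo above tws in 4 of 4. wdb was the lowest in each library, at a mean of 11.4 CPM per kilobase, and sgg stood just above it at 17.8. The gene sgg has 19 annotated transcripts, whose joined exons measure 12499 bases against 3110 for the median transcript. Per kilobase of the latter sgg was at rank 5 in each library, at 71.4 CPM. CkIIbeta likewise went from 28.5 to 111 CPM and was then at rank 3 in each library. Which transcripts the reads came from, and how far amplification favoured one end, cannot be read from counts per gene.

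**Figure D3:**
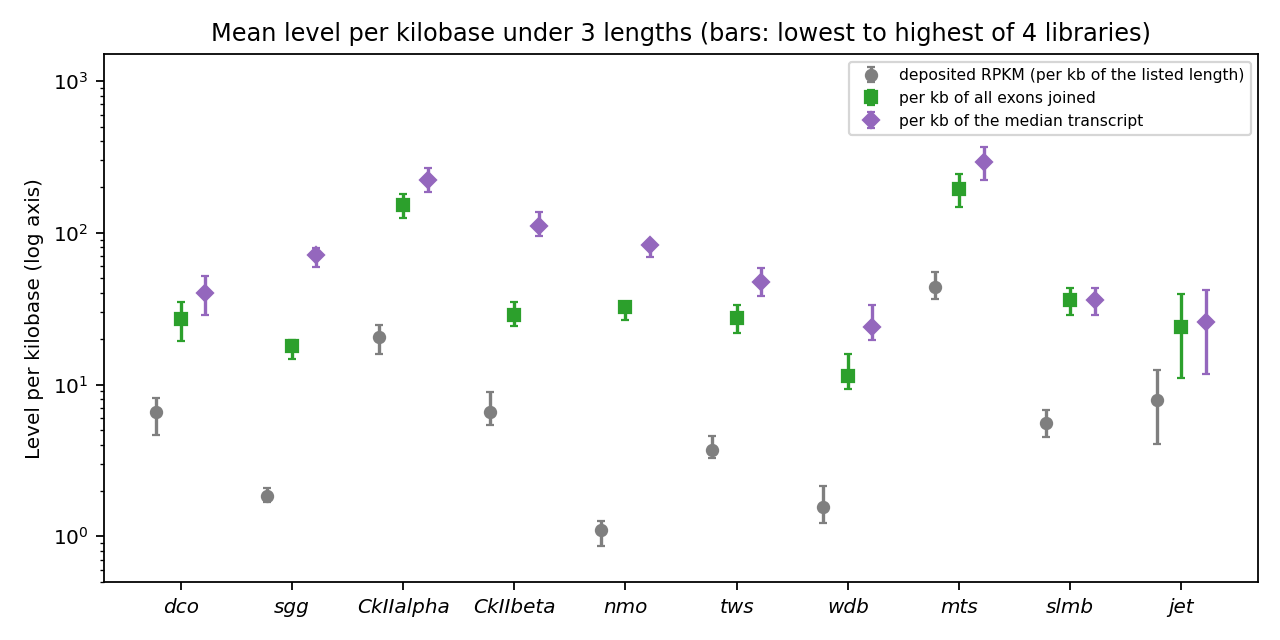
Mean level of each gene per kilobase on a log axis under 3 lengths: the deposited RPKM, CPM per kilobase of all exons joined, and the same per kilobase of the median annotated transcript; bars run from the lowest to the highest of the 4 libraries. mts and CkIIalpha are on top under each length, while sgg, nmo and CkIIbeta change place.

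Partner genes can also be compared within a library, where the scaling between libraries drops out. The reads of CkIIalpha over those of CkIIbeta came to 1.80 and 2.68 in control replicates 1 and 2 and to 1.62 and 2.61 in NonA RNAi replicates 1 and 2. The ratio thus differed more between the libraries of a group than between the groups, with a mean log2 ratio of 1.13 ± 0.40 and 1.04 ± 0.49 (SD, n = 2 each). The ratio of the PP2A regulatory genes tws and wdb was 1.71 and 1.41 (control) and 1.37 and 1.98 (NonA RNAi), and the groups overlapped in the same way.

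Against the catalytic gene mts, tws was at 0.199 and 0.225 (control) and 0.243 and 0.260 (NonA RNAi). This was the single ratio of the 5 for which the groups were apart. The log2 ratio differed by 0.25 between the groups, higher in 2 of 2 NonA RNAi libraries, with an exact two-sided permutation p of 0.333, the smallest that 2 against 2 libraries can give. The ratio of wdb to mts was 0.116 and 0.160 against 0.178 and 0.131. That of slmb to jet ran from 2.52 in control replicate 1 to 6.34 in NonA RNAi replicate 1, with 5.40 and 2.73 in the other libraries of each group. For these last ratios the groups overlapped.

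**Figure D4:**
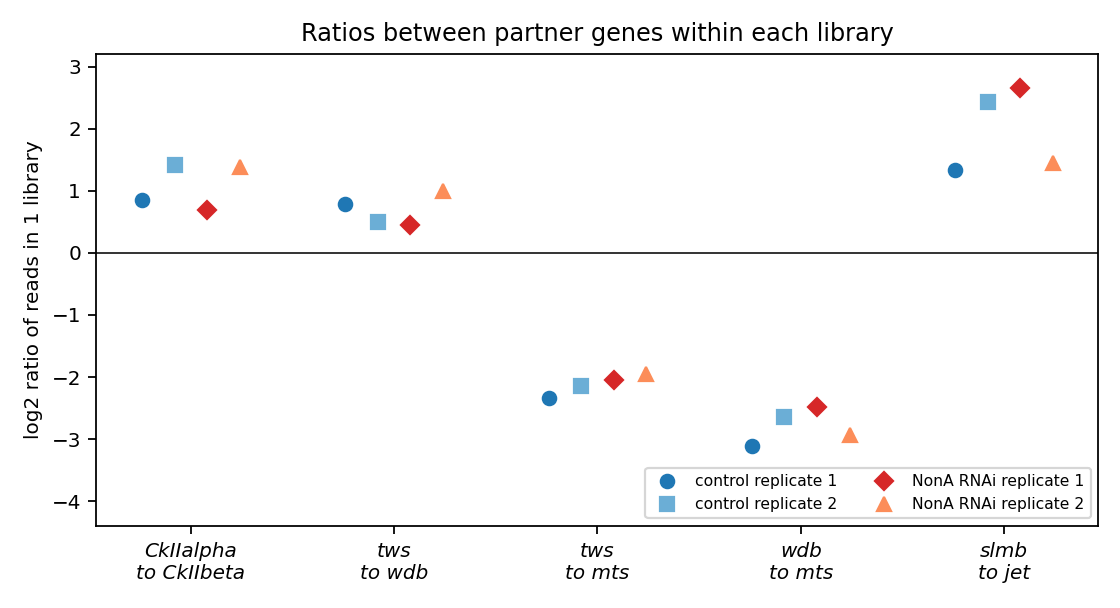
Log2 ratio of reads between partner genes within each library (vertical axis) for 5 pairs; each point is a library. Only tws to mts has both NonA RNAi libraries, at -2.04 and -1.95, above both controls, at -2.33 and -2.15, and slmb to jet spreads most.

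Related genes were read beside the 10 genes from lists of other kinases, phosphatases and genes of the ubiquitin pathway. Of the 62 tested genes of these 6 lists edgeR called 0 and DESeq2 called 0, and 0 had an unadjusted p below 0.05 in edgeR. Both libraries labelled NonA RNAi were under both controls for 14 of the 62 (22.6%, against 17.5% of all genes) and above both for 2 (3.23%, against 15.2%). Close relatives of 2 of the 10 genes had few or no reads. CkIIbeta2 and Ssl, relatives of CkIIbeta, had 0 reads in each library, which allows a level of up to 0.356 CPM in the shallowest library, and gskt, a close relative of sgg, had 9 reads, all of them in NonA RNAi replicate 1. Of the genes named as interactors of the CkIIalpha product, CkIIalpha-i3 was at 87.1 and 63.5 CPM (control) and 49.8 and 48.5 CPM (NonA RNAi), for a log2 fold of -0.61 (SE 0.45), and CkIIalpha-i1 had a log2 fold of -0.08.

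Of the 17 other kinases tested, 5 lay below both controls and 1 above, beside 17.5% and 15.2% of all genes, and the median log2 fold was -0.05. for, the gene of a cGMP-dependent kinase, was at 23.8 and 75.7 CPM (control) and 18.0 and 21.1 CPM (NonA RNAi). p38a, a stress-activated kinase gene listed as Mpk2 in the files, was at 17.6 and 15.9 CPM (control) and 2.07 and 6.31 CPM (NonA RNAi), a log2 fold of -2.0 (SE 1.03). Pka-C3, a gene of the protein kinase A family, and par-1, a polarity kinase gene, had log2 folds of -0.75 and -0.65. CkIalpha, another casein kinase 1 gene, was at 405 and 540 CPM (control) and 294 and 630 CPM (NonA RNAi), and its groups overlapped where those of dco did not. The difference between these 2 genes was not tested.

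Of the 8 other PP2A subunits and regulators, 7 had a log2 fold below 0, beside 50.4% of all genes, and 2 lay below both controls, beside 17.5%, with a median of -0.29. The scaffold gene Pp2A-29B was at 341 and 312 CPM (control) and 231 and 335 CPM (NonA RNAi). wrd, the gene of another B′ subunit, listed as PP2A-B' in the files, was at 366 and 294 CPM (control) and 262 and 377 CPM (NonA RNAi). For both the groups overlapped. Cka, Ptpa and endos had log2 folds of -0.49, -0.24 and -0.35. CG32568 had 31 and 28 reads (control), and 0 under the NonA RNAi label, at least 19.6-fold lower with 3 reads over the group as floor.

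Of the 12 other serine and threonine phosphatase genes tested, 4 lay below both controls and 0 above, where all genes had 17.5% and 15.2%, with a median log2 fold of -0.17. Pp1alpha-96A, a catalytic gene of protein phosphatase 1, was at 191 and 183 CPM (control) and 120 and 140 CPM (NonA RNAi), a log2 fold of -0.52 (SE 0.42). I-2, the gene of a protein phosphatase 1 inhibitor, was at 150 and 157 CPM (control) and 92.7 and 129 CPM (NonA RNAi). flw and PpD3 had log2 folds of -0.90 and -0.40, and the groups of flw overlapped.

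Among the listed genes of the ubiquitin pathway both signs occurred. Of the 15 tested genes of cullin ligases and other ubiquitin enzymes 2 lay below both controls and 1 above (17.5% and 15.2% of all genes). Their median log2 fold was 0.21. SkpA, which links F-box proteins to the cullin, was at 415 and 398 CPM (control) and 296 and 358 CPM (NonA RNAi), and Cul1, the cullin of the complex, at 134 and 165 CPM (control) and 226 and 155 CPM (NonA RNAi). ctrip, a ubiquitin ligase gene that acts on the activator CLK, and Cand1 were each higher in NonA RNAi replicate 1 alone, at 396 and 110 CPM, against 190 and 50.5 CPM in NonA RNAi replicate 2. SkpB and Usp8 had log2 folds of -2.05 and 0.72. The COP9 signalosome, which trims cullins, had a median log2 fold of 0.08 over 8 tested genes, with 0 apart in either direction. Its most deviating genes, CSN8 and CSN4, were at log2 folds of 0.36 and 0.23, with CSN3 at -0.21 and the CSN2 gene alien at 0.18.

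Of the 12 clock genes listed, substrates of these enzymes and their partners, 11 had a log2 fold above 0 and 1 below, where 50.4% of all genes were below. tim was at 1636 and 829 CPM (control) and 2594 and 1929 CPM (NonA RNAi), and per at 115 and 37.9 CPM (control) and 142 and 59.9 CPM (NonA RNAi). Of the 12, 6 lay above both controls, where 15.2% of all genes did, and 1, Atx2, below, where 17.5% did, and the median log2 fold was 0.53. Atx2, which aids translation of per, had a log2 fold of -1.25 (SE 0.44), cwo of 0.98, tim of 0.87 and vri of 0.83, and none passed after adjustment. bdbt, whose protein binds Doubletime, was at 8.43 and 14.2 CPM (control) and 12.6 and 23.0 CPM (NonA RNAi). Transcripts of per, tim, vri, cwo and Pdp1 are known to cycle over the day, and the sources used here do not give the time of collection. Clk, cry, per, tim and vri are also among the markers listed for the labelled neurons, whose Pdf level was higher under the NonA RNAi label. The part of a different share of these neurons in the clock gene levels was not tested.

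**Figure D5:**
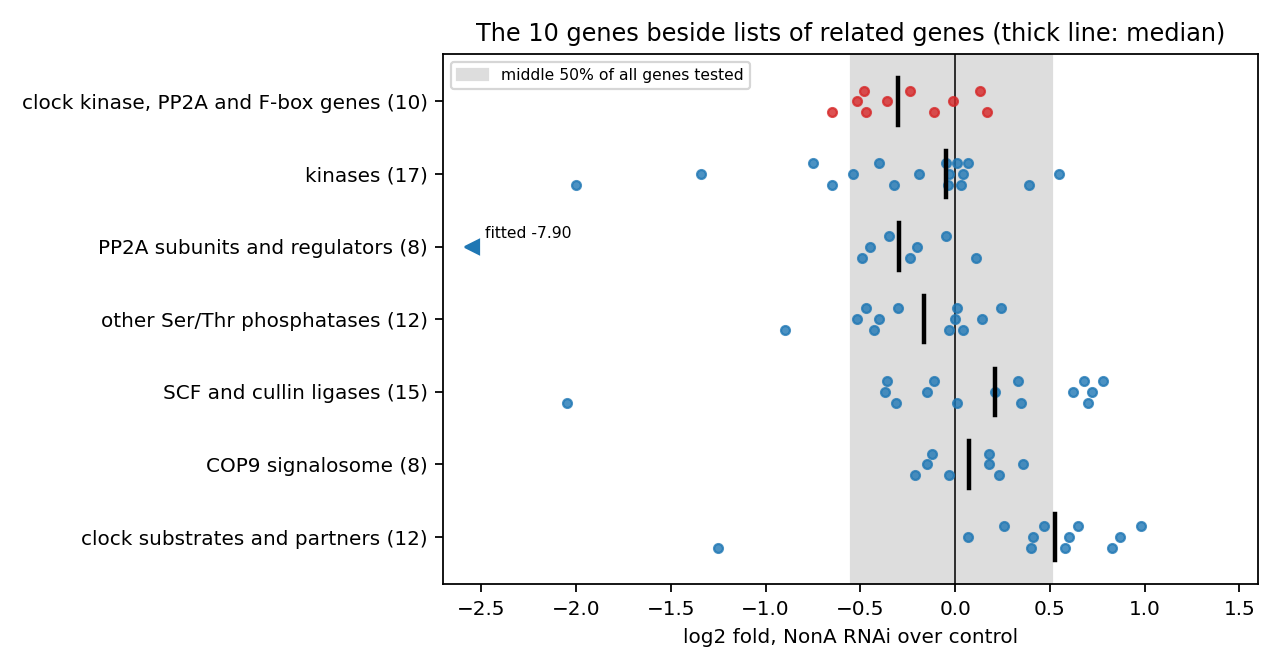
Log2 fold, NonA RNAi over control, for the 10 clock kinase, PP2A and F-box genes and for 6 lists of related genes. Each point is a gene, the thick line is the median, and the grey band the middle 50% of all genes tested. The arrow is a gene without reads in the NonA RNAi libraries whose fitted value depends on the prior count. The list of CK2 relatives and interactors is not drawn, and its 2 tested genes, both interactors, have a median of -0.34. The medians drawn run from -0.30 for the 10 genes and -0.29 for other PP2A genes to 0.53 for the clock substrates and partners.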

How the data were processed

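TopHat2 2.1.1, Cufflinks and the build dm3 are named by the submitters' processing notes. How reads were counted, with what annotation and whether by strand, is not given in the sources used here. By the file headers, every deposited table holds raw read counts per gene symbol, a length, RPM and RPKM. The counts as deposited by the authors are whole numbers, and their totals differ. RPKM as deposited equalled RPM per kilobase of the listed length, and RPM divided by the total of ambiguous, featureless and gene reads, to within 0.0128%. Library sizes leave out the 3 rows without a gene: reads aligned to several places made up 45.2% to 55.6% of all entries, reads without a feature 27.8% to 32.5% and ambiguous reads 0.219% to 0.317%. 3 reads correspond to 0.305 to 0.356 CPM.

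Genes with a mean of at least 1 CPM were tested with edgeR 4.0.16 (R 4.3.3), library size being the sum of gene reads, by its quasi-likelihood test (two-sided), adjusted by Benjamini-Hochberg, with a threshold of 0.05; the common dispersion was 0.544. SE is the size of the log2 fold over the root of F. Counting intervals are exact (Clopper-Pearson, scipy 1.17.1) at 95%. DESeq2 1.42.0 was an alternative, beside other scalings, other filters, the replicate number as a block, no dispersion trend and each library left out. The fits of edgeR and DESeq2 were also run on simulated data, with means and dispersions taken from these libraries, and the outcome is not given here. Gene IDs, chromosomes, exon lengths and overlaps come from Ensembl release 115 (BDGP6.54), a later build than dm3, so no coordinates are given. The 10 genes, the lists and the tests were chosen with earlier results of these data known, although the rule for the 10 genes uses no measured value; all 10 genes are named, and of each list up to 4 genes with the smallest unadjusted p. Further list genes (CkIalpha, the close copies, Pp2A-29B, wrd, SkpA, Cul1, per and bdbt) are named for their role. Protein and promoter sequences were not used here.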

Additional observations from a re-analysis of the deposited data

How the results depend on the processing

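None of the 10 genes was called under any of the 13 alternatives, nor was any gene of the 7 lists. Over all genes 0 were called with edgeR, 79 without a filter (10884 genes tested), 142 with DESeq2, and between 0 and 22 with single libraries left out, 22 without control replicate 2. The 0 calls at an adjusted p came with 457 genes at an unadjusted p under 0.05. The count of the 10 genes below both controls was 3 under each scaling and filter. The count above both was 1, and 0 with TMM, median-of-ratios scaling or DESeq2's size factors. Scaled to gene reads, 17.5% of all genes were below both controls and 15.2% above. These shares were not counted for the other settings, and counts with libraries left out are not given. The log2 fold of CkIIalpha, -0.01, turned to 0.031 with TMM, 0.005 with median-of-ratios scaling and with DESeq2, 0.071 without Pdf in the library size and 0.015 with the replicate number as a block. With libraries left out it ran from -0.25 to 0.28, that of sgg from -0.327 to 0.085, CkIIbeta from -0.16 to 0.38 and wdb from -0.66 to 0.025. With libraries left out, the group difference in log2 ratio ran from -0.44 to 0.25 for CkIIalpha to CkIIbeta and -0.185 to 0.353 for tws to wdb. It ran from -0.069 to 0.397 for wdb to mts and -0.432 to 0.781 for slmb to jet, so its sign turned for these 4. For tws to mts it ran from 0.157 to 0.339, but with the groups apart, leaving out 1 library cannot turn the sign. The causes of these changes were not tested. Other scalings moved the median of all genes by at most 0.072.

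Same-numbered libraries did not deviate together (r = -0.011 over 9404 genes), so numbers were not taken as pairs. With the replicate block 0 of the 10 genes and 0 of all genes were called. Counting error was largest for jet, at most 16.1% to either side. The libraries of jet differed by more, 1.02 on the log2 scale between the controls and 1.26 between the NonA RNAi libraries. With 2 libraries a group, the 95% intervals of the 10 genes allow folds from 0.209 to 2.34.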
